A study of Rattus norvegicus with 6 samples.

Results

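The genes described here are 55 genes of fatty acid oxidation and of the peroxisome, chosen by name from the known biology of these pathways, with earlier results of these data known. They were found on the arrays by matching each probe's RefSeq transcript to the current rat gene symbol, and all 55 had at least 1 probe. Where a gene had several probes, the brightest one that Feature Extraction marked as well above background throughout either group (3 arrays of 3) stood for it. Of the 55, 54 passed that filter, out of 31582 genes or sequences that passed it in all. Abcd2, a peroxisomal transporter of very long chain acyl-CoA, did not: neither of its probes cleared background on any of the 6 arrays.

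The study measured total RNA of kidney cortex in male Sprague-Dawley rats (Crl:CD(SD)), bought at 5 weeks of age, with 1 one-colour array for each animal. The 3 control rats were given corn oil, the vehicle, for 4 weeks. The 3 treated rats were given 2,2-bis(bromomethyl)-1,3-propanediol, a brominated diol called BBMP here, at 1000 mg/kg/day for 4 weeks. All animals were fed a basal diet, and the labels name no genetic change.

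Fatty acids are the main fuel of the proximal tubule, the segment that makes up most of the cortex. Long chains enter the mitochondrial matrix on carnitine and are shortened there by a repeating cycle of dehydrogenation, hydration, a further dehydrogenation and thiolysis, with the electrons passed on through the electron transfer flavoprotein. Peroxisomes run a parallel cycle on very long and branched chains, begun by oxidases that make hydrogen peroxide, and import their enzymes from the cytosol with a set of proteins called peroxins. Many genes of both organelles are known targets of PPAR alpha, a nuclear receptor that binds fatty acids.

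At an adjusted p under 0.05 by limma, 5 of the 54 genes were higher in BBMP rats and 4 were lower. The 5 were Hadha, a subunit of the mitochondrial trifunctional protein, Acaa1a, a peroxisomal thiolase, Acox3, a peroxisomal oxidase of branched chains, and the peroxins Pex6 and Pex14. The 4 were Decr1, a reductase that mitochondria need for unsaturated chains, Etfa, a subunit of the electron transfer flavoprotein, and the peroxins Pex13 and Pex19. Those 9 make 16.7% of the tested genes, where 17.9% of all genes tested were called. By direction, 10.2% of all genes were called higher and 7.68% lower, against 9.26% and 7.41% of the 54. Over all genes, 3232 were called higher and 2427 lower; the split was 2102 and 3749 with median scaling, 2592 and 2701 with quantile normalization, 2538 and 2906 with cyclic loess and 3103 and 3269 with normexp. A share this near the background is not a result about the pathway.

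The differences were small. None of the 9 called genes reached 1.5-fold, and among the 54 only Fabp1, which was not called, differed by that much (1.85% of the 54, against 8.63% of all genes tested). The median size of the difference, on the log2 scale and without sign, was 0.16 for the 54 genes and 0.21 for all genes. The signed median was 0.027 for the 54 and 0.049 for all genes. The groups did not overlap in 21 of the 54 genes, 12 with all BBMP arrays above all control arrays and 9 with all below. That is 38.9% of them, against 43.6% of all genes tested.

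**Figure D1:**
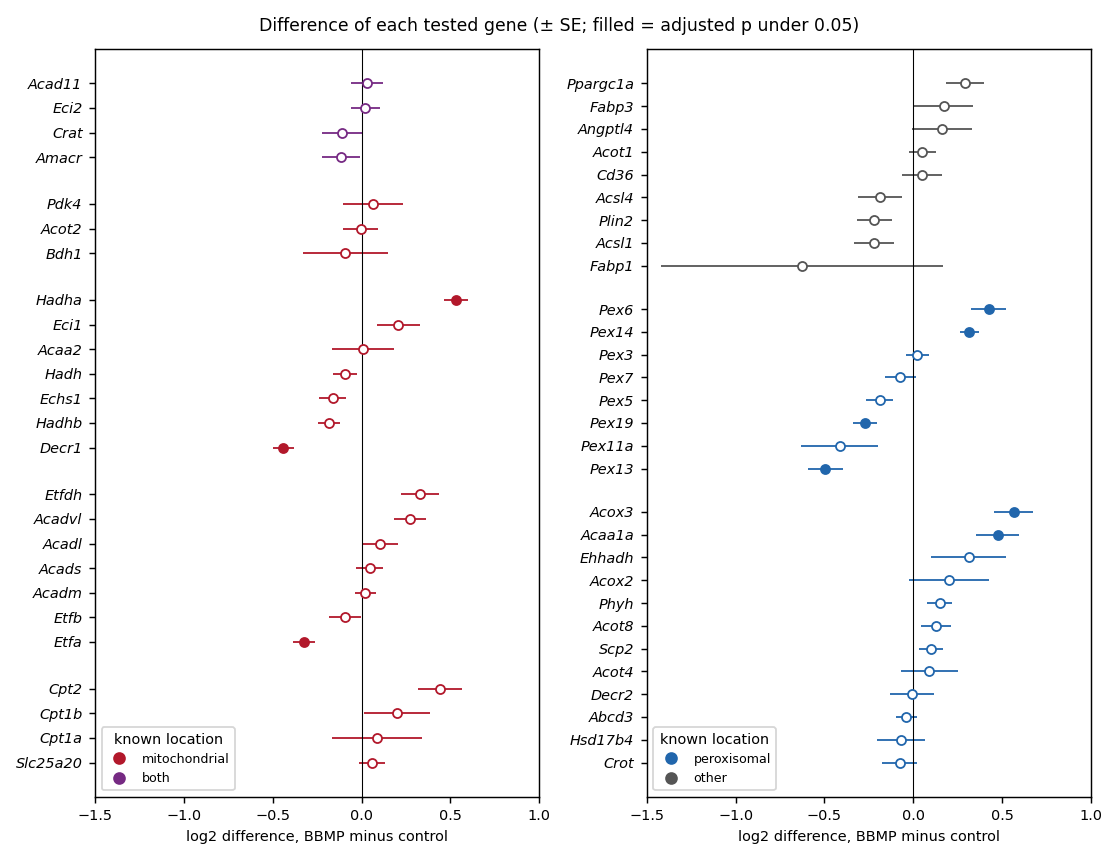
The log2 difference between BBMP and control rats is plotted for the 54 tested genes, grouped by role and coloured by the known location of the protein, with bars for the SE (3 arrays per group) and filled points for an adjusted p under 0.05. The 9 filled points lie on both sides of 0, between -0.49 for Pex13 and 0.57 for Acox3, and Fabp1 has the widest error.

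The arrays set limits that apply to every value below. All control arrays were on 1 slide, read in 1 scan, and all BBMP arrays were on another slide and scan, so that the effect of BBMP and that of the slide or its scan cannot be told apart. Within the slides, control arrays 1 and 2 lay in row 2, and control array 3 and all BBMP arrays in row 1. With slide row as a block, or in row 1 alone, no call remained, neither among the 54 genes nor among all genes. Row 1 has 1 control array, which is there assumed to vary like the BBMP arrays. In row 1 alone 14 of the 54 differences, none of them of a called gene, had the other sign. The share of probes well above background was 67.2% to 68.6% on control arrays and 70.5% to 72.7% on BBMP arrays, without overlap. The upper quartile of signal ranged from 943 to 950 in control and from 1244 to 1259 in BBMP samples. Signals below are on a log2 scale on which 0 is the array's own 75th percentile. They compare arrays for 1 probe and do not rank genes by abundance. In whole cortex, fewer cells of a type and less RNA per cell cannot be told apart.

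In the carnitine shuttle, 0 of 4 genes were called. Cpt1a and Cpt1b encode the outer membrane transferase that commits fatty acids to the mitochondrion. Cpt1a read 2.95, 3.24 and 3.50 on control arrays 1 to 3 and 3.79, 3.24 and 2.92 on BBMP arrays 1 to 3, a log2 difference of 0.086 ± 0.25 (SE). The BBMP arrays of Cpt1a spanned the whole control range and went beyond it at both ends. Cpt2, which encodes the inner membrane transferase that returns the chain to coenzyme A, read 2.97, 3.14 and 3.38 in control and 3.61, 3.49 and 3.71 in BBMP samples. Its groups did not overlap, and the log2 difference of 0.44 ± 0.12 (SE) missed the threshold (limma adjusted p = 0.0602). Slc25a20, the carrier that exchanges acylcarnitine for carnitine, differed by 0.058 ± 0.072 (SE) with overlapping groups. All 4 genes of the shuttle were lowest on control array 1 and highest, among control arrays, on control array 3, the control in row 1. Against that array alone, Cpt2 differed by 0.22 in row 1 (limma adjusted p = 0.367).

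Cpt1b had 3 tested probes that did not move alike. The brightest, at 1.84, 1.93 and 2.15 in control and 1.92, 2.05 and 2.56 in BBMP samples, differed by 0.20 ± 0.18 (SE). Another differed by 0.40 and was not called. The dimmest was well above background on 1 of 3 control arrays and 3 of 3 BBMP arrays and differed by 1.36 ± 0.32 (SE; limma adjusted p over all probes = 0.0385). That probe passed the filter only through the BBMP arrays, where it was higher, so its p adds no support.

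The acyl-CoA dehydrogenases carry out the opening step of each round, each on its own range of chain lengths, and 0 of 4 were called. Acadm and Acads, for medium and short chains, were nearly level between the groups. Acadm read 6.29, 6.19 and 6.21 in control and 6.24, 6.25 and 6.27 in BBMP samples, and Acads differed by 0.046 ± 0.075 (SE). Acadl, for long chains, read 6.09, 6.21 and 6.38 in control and 6.25, 6.30 and 6.44 in BBMP samples, with overlap and a difference of 0.11 ± 0.099 (SE). Acadvl, for very long chains, read 3.94, 4.05 and 4.17 in control and 4.27, 4.26 and 4.45 in BBMP samples. Its groups did not overlap, the difference of 0.27 ± 0.092 (SE) was not called (limma adjusted p = 0.0917), and its other probe differed by 0.25.

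The 3 genes that pass the electrons on did not move together. Etfa encodes the alpha subunit of the electron transfer flavoprotein and Etfb the beta subunit, while Etfdh encodes the dehydrogenase that hands the electrons to ubiquinone. Etfa fell: it read 3.41, 3.26 and 3.37 in control and 3.04, 3.03 and 3.00 in BBMP samples, so every BBMP array lay below every control array. It was 1.25-fold lower (log2 difference -0.32 ± 0.064, SE; limma adjusted p = 0.0263). Etfb, its partner in a dimer, read 6.10, 6.26 and 6.30 in control and 6.26, 6.05 and 6.06 in BBMP samples, with overlap and a difference of -0.093 ± 0.092 (SE). Etfdh read 3.18, 3.23 and 3.40 in control and 3.63, 3.42 and 3.74 in BBMP samples. Its groups did not overlap and its difference of 0.33 ± 0.11 (SE) missed the threshold (limma adjusted p = 0.0869).

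Of 7 genes for the later steps of the mitochondrial cycle, 1 rose and 1 fell, and the groups did not overlap in 6, against 17.9% called and 43.6% not overlapping among all genes. Hadha and Hadhb encode the alpha and beta subunits of the trifunctional protein, which works as a complex of both on long chains. Hadha rose 1.45-fold. It read 3.03, 3.16 and 3.15 in control and 3.69, 3.57 and 3.67 in BBMP samples, a log2 difference of 0.53 ± 0.069 (SE; limma adjusted p = 0.0131), with each BBMP array above all control arrays. Of its other probes, 1 was called at 0.45 and 1 was not, at 0.17 ± 0.077 (SE; limma adjusted p over all probes = 0.178). Hadhb, with 1 probe, read 2.72, 2.80 and 2.85 in control and 2.62, 2.57 and 2.62 in BBMP samples. Every BBMP array of Hadhb lay below the control arrays, and its difference of -0.19 ± 0.061 (SE) was not called (limma adjusted p = 0.0871).

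The ratio of the 2 subunit signals within an array, with the control mean set to 0, was -0.015, 0.033 and -0.018 on the control arrays and 0.74, 0.68 and 0.73 on the BBMP arrays. The difference of 0.72 was far larger than the spread between arrays (SD 0.028 in control and 0.037 in BBMP samples). An exact two-sided permutation test gave p = 0.1, the smallest that 3 arrays against 3 allow. The pair was picked after its values were seen, so that p adds no support. The pairs Etfdh and Etfa, Pex14 and Pex13, Acaa1a and Acaa2, and Decr2 and Decr1 gave the same p. The ratio used the brightest Hadha probe, and another Hadha probe differed by only 0.17. A ratio shows unequal change and not which of the probes moved.

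In the rat genome Hadha and Hadhb are neighbours that run in opposite directions, and their promoter windows in the RefSeq table (build GRCr8, 250 bases before to 50 bases after each start) overlap. They are shown because 2 genes with a shared upstream stretch gave signals that differed in opposite directions, with Hadha called and Hadhb not. The 200 bases that both windows share are in capitals. The Hadha window lies on the plus strand at chr6:31907551-31907850 and the Hadhb window on the minus strand at chr6:31907451-31907750, each written 5′ to 3′ on its own strand.
Hadha: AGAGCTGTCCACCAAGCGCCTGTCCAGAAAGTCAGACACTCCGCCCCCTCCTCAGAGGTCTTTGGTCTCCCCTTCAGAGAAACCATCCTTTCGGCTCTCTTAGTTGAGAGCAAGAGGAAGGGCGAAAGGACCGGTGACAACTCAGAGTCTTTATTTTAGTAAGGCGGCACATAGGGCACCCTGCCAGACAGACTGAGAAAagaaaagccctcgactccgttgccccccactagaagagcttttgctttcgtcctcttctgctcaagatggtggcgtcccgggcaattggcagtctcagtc
Hadhb: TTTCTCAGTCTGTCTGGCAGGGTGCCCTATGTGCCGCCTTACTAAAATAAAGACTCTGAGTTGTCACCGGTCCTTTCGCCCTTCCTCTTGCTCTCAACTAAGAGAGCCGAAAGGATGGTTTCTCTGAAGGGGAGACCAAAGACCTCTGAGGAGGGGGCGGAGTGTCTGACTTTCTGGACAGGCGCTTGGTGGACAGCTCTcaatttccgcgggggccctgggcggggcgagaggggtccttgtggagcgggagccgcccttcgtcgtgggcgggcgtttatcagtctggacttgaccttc

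Decr1, the mitochondrial 2,4-dienoyl-CoA reductase, had the tightest control values of the called genes that fell. It read 6.13, 6.13 and 6.10 in control and 5.65, 5.66 and 5.74 in BBMP samples, which was 1.36-fold lower (log2 difference -0.44 ± 0.057, SE; limma adjusted p = 0.0131). Decr2, the peroxisomal reductase of the same reaction, read 2.78, 3.14 and 3.09 in control and 3.13, 2.98 and 2.87 in BBMP samples. Its groups overlapped and its difference was -0.0081 ± 0.12 (SE). The other 4 genes of these steps were not called. Echs1, the short-chain hydratase, and Hadh, the medium and short-chain dehydrogenase, differed by -0.16 ± 0.075 and -0.095 ± 0.067 (SE), each with groups that did not overlap. Eci1, an isomerase for unsaturated chains, differed by 0.21 ± 0.12 (SE), also without overlap. Acaa2, the mitochondrial thiolase, differed by 0.0096 ± 0.17 (SE), with control array 1 and BBMP array 2 both near 5.8 and the other 4 arrays between 6.201 and 6.25.

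None of the 3 other matrix enzymes was called. Pdk4, a kinase that turns off pyruvate dehydrogenase when fat is burned and a known PPAR alpha target, read -1.84, -1.57 and -1.31 in control and np.float64(-1.5003), -1.73 and -1.30 in BBMP samples. The groups overlapped almost entirely. Bdh1, which interconverts ketone bodies, differed by -0.091 ± 0.24 (SE), with control array 3 and BBMP array 1 above the rest. Acot2, a thioesterase that releases free fatty acid, differed by -0.0060 ± 0.098 (SE). Acot1, Acot2 and Acot4 are close copies, with Acot1 and Acot2 next to each other in the genome, so their probes may share signal.

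**Figure D2:**
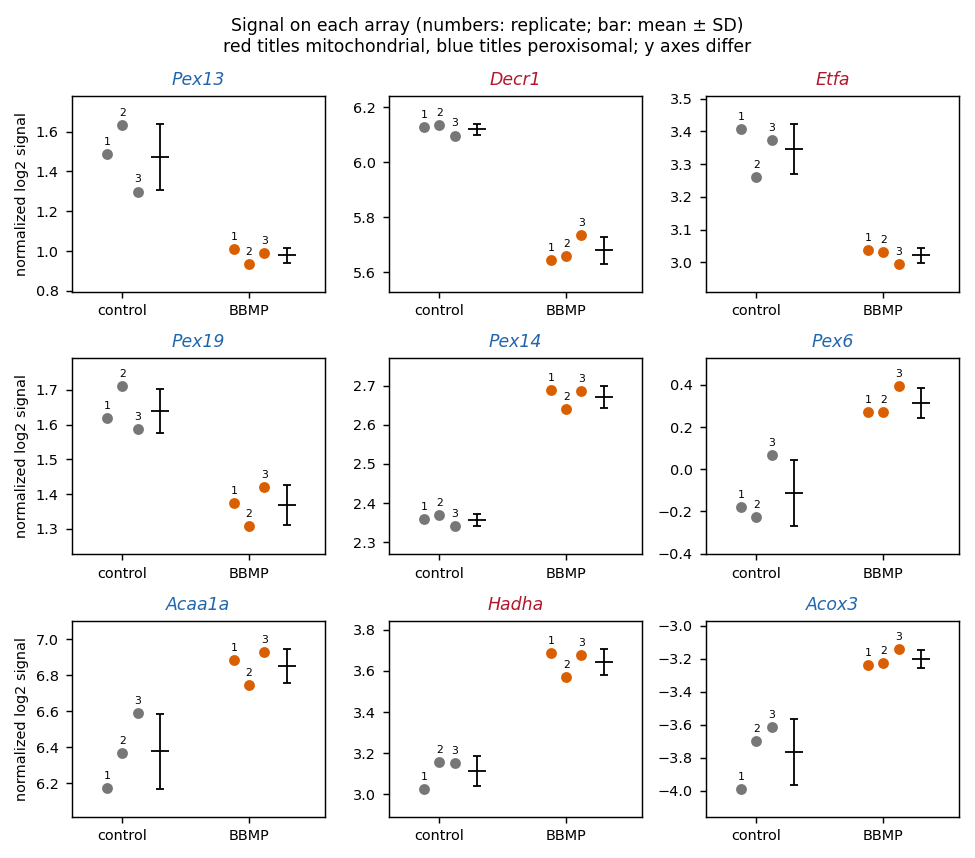
The normalized log2 signal of the 9 called genes is plotted for each of the 6 arrays, numbered by replicate, with the mean ± SD of each group of 3; a panel's y axis fits its own gene. In each panel the 3 BBMP arrays lie wholly above or wholly below the 3 control arrays, and control array 3 is the control nearest to the BBMP arrays for Acaa1a, Acox3, Pex6, Decr1, Pex13 and Pex19.

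Among peroxisomal enzymes and transporters, 2 of 12 tested genes rose and 0 fell (16.7% called, against 17.9% of all genes). Acaa1a, the thiolase that ends the peroxisomal cycle, rose 1.39-fold. It read 6.17, 6.37 and 6.59 in control and 6.88, 6.75 and 6.93 in BBMP samples (log2 difference 0.47 ± 0.12, SE; limma adjusted p = 0.0476). Control array 3 was the control nearest to the BBMP arrays, and in row 1 alone the difference was 0.26 (limma adjusted p = 0.280). Of its other probes, 1 differed by 0.48 and 1 by -0.036, neither called, and its near-identical copy Acaa1b may share the signal.

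Acox3 rose 1.48-fold. It read -3.99, -3.70 and -3.61 in control and -3.23, -3.23 and -3.14 in BBMP samples (log2 difference 0.57 ± 0.11, SE; limma adjusted p = 0.0261). Its 1 probe was dim but well above background on all 6 arrays. Acox2, the oxidase of bile acid intermediates, was as dim, and its groups overlapped (-3.22, -3.62 and -4.12 in control, -3.54, -3.37 and -3.45 in BBMP samples).

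Ehhadh and Hsd17b4 encode the bifunctional proteins of the inner steps of the peroxisomal cycle, and neither was called. Ehhadh, another known PPAR alpha target, read 2.85, 3.25 and 3.60 in control and 3.48, 3.37 and 3.78 in BBMP samples, with overlap and a difference of 0.31 ± 0.21 (SE). Hsd17b4, for branched chains, differed by -0.069 ± 0.14 (SE). Scp2, whose longer product is a thiolase for branched chains, read 7.13, 7.14 and 7.14 in control and 7.34, 7.22 and 7.16 in BBMP samples. Its groups did not overlap, yet the difference of 0.10 ± 0.068 (SE) was not called, and its other probe differed by -0.0078. Phyh, which starts the oxidation of phytanic acid, differed by 0.15 ± 0.069 (SE), without overlap and without a call. Crot, which moves shortened chains onto carnitine, and Abcd3, a transporter of the peroxisomal membrane, differed by -0.077 ± 0.099 and -0.039 ± 0.061 (SE). The thioesterase genes Acot4 and Acot8 differed by 0.090 and 0.13 and were not called, but the other probe of Acot8 was called at 0.54 ± 0.083 (SE; limma adjusted p over all probes = 0.0169).

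Of the 8 peroxins, 2 were higher and 2 lower, against 10.2% and 7.68% of all genes, and no test was made of that count. Pex14 and Pex13 form the docking site on the membrane where receptors arrive with their cargo, and they differed in opposite directions. Pex14 rose 1.24-fold. It read 2.36, 2.37 and 2.34 in control and 2.69, 2.64 and 2.69 in BBMP samples (log2 difference 0.31 ± 0.053, SE; limma adjusted p = 0.0196), and all 3 of its probes were called, at 0.25, 0.31 and 0.33. Pex13 fell: it read 1.49, 1.63 and 1.30 in control and np.float64(1.0105), 0.94 and 0.99 in BBMP samples, 1.41-fold lower on its 1 probe (log2 difference -0.49 ± 0.096, SE; limma adjusted p = 0.0259). The ratio of Pex14 to Pex13, with the control mean at 0, was -0.013, -0.14 and 0.16 in control and 0.79, 0.82 and 0.81 in BBMP samples (exact two-sided permutation p = 0.1, the smallest possible, for a pair picked after its values were seen).

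Pex6 encodes an ATPase that helps pull the receptor back out of the membrane. It rose 1.34-fold, at -0.18, -0.23 and 0.068 in control and 0.27, 0.27 and 0.39 in BBMP samples (log2 difference 0.42 ± 0.097, SE; limma adjusted p = 0.0367). Pex19, the chaperone of membrane proteins bound for the peroxisome, was 1.21-fold lower on its brightest probe. That probe read 1.62, 1.71 and 1.59 in control and 1.37, 1.31 and 1.42 in BBMP samples (log2 difference -0.27 ± 0.066, SE; limma adjusted p = 0.0415). Its 7 probes ran from -0.42 to 0.14, with 2 called, both lower, so the direction for Pex19 rests on part of its probes. The receptor genes were not called: Pex5, the receptor for the common signal at the end of matrix enzymes, differed by -0.19 ± 0.076 (SE) and its other 2 probes by 0.051 and 0.18, while Pex7 differed by -0.073 ± 0.086 (SE). Pex3, the membrane partner of Pex19, differed by 0.024 ± 0.064 (SE). Pex11a, which drives division of peroxisomes and responds to PPAR alpha ligands in liver, read 5.48, 5.51 and 5.08 in control and 5.06, 4.52 and 5.23 in BBMP samples. Its 3 probes differed by -0.32 to -0.43, none called. On the brightest probe control array 3 lay among the BBMP arrays, while on the probe at -0.43 the groups did not overlap.

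**Figure D3:**
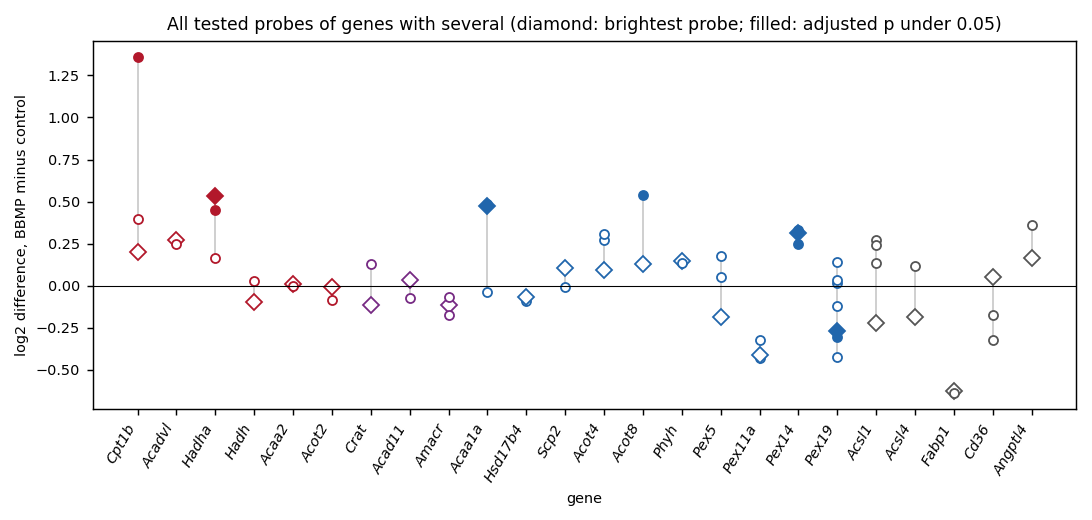
Every tested probe is plotted for the genes that had more than 1, as the log2 difference between BBMP and control rats, with a diamond for the brightest probe and filled symbols for a p adjusted over all probes under 0.05. The 3 probes of Pex14 lie together between 0.25 and 0.33, while those of Cpt1b run from 0.20 to 1.36 and those of Pex19 from -0.42 to 0.14. The Cpt1b probe at 1.36 passed the filter only through the BBMP arrays.

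The 4 genes whose products work in both organelles were not called. Crat, which moves acetyl groups onto carnitine, read 6.36, 6.43 and 6.71 in control and 6.30, 6.36 and 6.50 in BBMP samples. Amacr, which turns branched chains into the form that can be oxidized, differed by -0.11 ± 0.11 (SE), and its 3 probes by -0.18 to -0.071. Acad11, a dehydrogenase, and Eci2, an isomerase, differed by 0.031 ± 0.089 and 0.021 ± 0.080 (SE). The groups overlapped in each of the 4.

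Uptake, activation, storage and control were covered by 9 genes, of which 0 were called. Fabp1, the liver-type fatty acid binding protein, varied most: it read -1.69, -2.69 and -0.21 in control and -1.07, -2.14 and -3.26 in BBMP samples. With an SD of 1.24 in control and 1.09 in BBMP samples, its difference of -0.62 ± 0.79 (SE) was within the spread between arrays. Without control array 3 the difference was 0.034. Alb, a hepatocyte marker, ordered the arrays as Fabp1 did, at -0.0054, -1.24 and 1.69 in control and 1.18, -0.56 and -2.29 in BBMP samples. Serpina1 did so too and Apoa1 nearly so, while the hepatocyte markers Cyp2c11 and Fga did not. What lies behind this shared order was not tested. Fabp3, the heart-type binding protein, differed by 0.17 ± 0.17 (SE). Cd36, which takes up fatty acids, differed by 0.051 ± 0.11 (SE), and its other 2 probes by -0.18 and -0.32. Acsl1, which activates long chains, read 5.56, 5.69 and 5.90 in control and 5.58, 5.37 and 5.55 in BBMP samples. Its other 3 probes had the opposite sign, from 0.13 to 0.27, and none was called. Plin2, the coat protein of lipid droplets, read 4.85, 4.88 and 5.14 in control and 4.66, 4.73 and 4.82 in BBMP samples, without overlap and without a call (limma adjusted p = 0.171). Ppargc1a, a coactivator that drives mitochondrial genes, read -0.63, -0.51 and -0.34 in control and -0.059, -0.28 and -0.27 in BBMP samples. Its groups did not overlap, and the difference of 0.29 ± 0.11 (SE) was not called (limma adjusted p = 0.107). The remaining 3, Acot1, Acsl4 and Angptl4, differed by 0.052, -0.19 and 0.16, with overlap.

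Set against each other, the mitochondrial and the peroxisomal genes had nearly the same median. Of the 21 mitochondrial genes, 1 rose and 2 fell (14.3%), and the median log2 difference was 0.046. Of the 20 tested peroxisomal genes, 4 rose and 2 fell (30.0%), and the median was 0.057. The share called among all genes tested was 17.9%. With median scaling they turned to -0.030 and -0.018, where that of all genes was -0.026. Both medians lie near the 0.049 of all genes tested, and no test was made of the difference in counts. Peroxisomal enzymes had a median of 0.12 and peroxins of -0.13. The values of 13 mitochondrial genes were above 0 and of 8 below, against 11 and 9 for peroxisomal genes.

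The arrays spread more for mitochondrial genes than for peroxisomal ones. The median deviation of the 21 mitochondrial genes from their control mean was -0.11, 0.0054 and 0.098 on control arrays 1 to 3 and 0.040, 0.013 and 0.11 on BBMP arrays 1 to 3. Control array 3 thus lay above BBMP arrays 1 and 2, and the groups overlapped. For the 20 peroxisomal genes the medians were -0.023, 0.035 and 0.0095 in control and 0.071, 0.071 and 0.077 in BBMP samples, without overlap on this scaling. All genes tested also stood higher on the BBMP arrays, at 0.045 to 0.053 against -0.0085 to 0.0098 in control samples. Of the 21 mitochondrial genes, 17 were lowest among controls on array 1, where 36.6% of all genes were, and 13 were highest on array 3, where 37.7% of all genes were. Row 1 holds array 3 and row 2 holds array 1, and the part of slide row in these values was not tested beyond the block: with slide row as a block the mitochondrial median was -0.047.

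**Figure D4:**
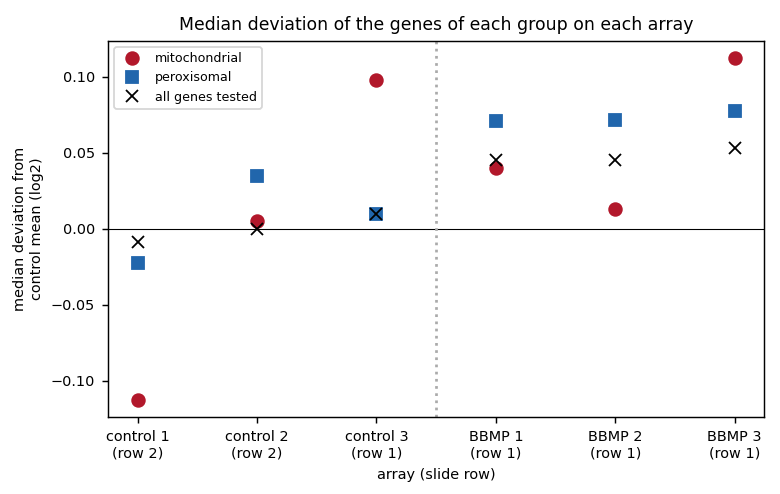
For each of the 6 arrays, labelled with its slide row, the median deviation from the control mean (log2) is plotted over the 21 mitochondrial genes, the 20 tested peroxisomal genes and all genes tested. Mitochondrial genes run from -0.11 on control array 1 to 0.11 on BBMP array 3 with control array 3 at 0.098, while peroxisomal genes lie from 0.071 to 0.077 on all BBMP arrays.

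The RefSeq table held 51 promoter windows for 50 of the 55 genes, with 2 for Plin2. PPAR alpha binds with a partner to a direct repeat, and 2 copies of AGGTCA in a row with 1 base between them were searched on both strands. This repeat was in 0 of the 51 windows and in 0.0538% of all 33469 windows. With the fourth letter of the leading copy left free (AGGNCA, chosen after the values were seen), 1 of the 51 held it, Fabp1, against 0.0896% of all windows. AGGTCA alone, which is part of both and was also added after the values were seen, was in 12 of the 51 (23.5%) and in 16.2% of all windows, and none of the 12 was a called gene. Called genes without a window were Decr1 and Pex6; Acaa2, Acadl and Cpt1b had none either. A match is a run of letters and not a site, and no match says only that these letters are not in this window. The Fabp1 window is shown because it holds the match, with the match in capitals (on the plus strand at chr4:104749090-104749389, GRCr8).
Fabp1: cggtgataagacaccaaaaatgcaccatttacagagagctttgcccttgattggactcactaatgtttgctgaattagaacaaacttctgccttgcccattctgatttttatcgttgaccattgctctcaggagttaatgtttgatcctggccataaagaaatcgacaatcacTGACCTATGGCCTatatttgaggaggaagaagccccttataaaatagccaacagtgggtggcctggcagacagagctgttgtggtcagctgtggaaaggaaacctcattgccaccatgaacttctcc

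Other genes of the same pathways were called in shares of 12.2% to 17.6%, against the 17.9% of all genes. Of 41 tested genes of a list of other fatty acid oxidation genes, 5 rose and 0 fell (12.2%), with a median of 0.054. Cpt1c, a carnitine transferase mostly known from brain, was dim and rose 1.68-fold (log2 difference 0.75 ± 0.11, SE; limma adjusted p = 0.0157). Cyp4a1, a fatty acid omega-hydroxylase and PPAR alpha target with close copies, rose 1.36-fold (limma adjusted p = 0.0396). The other Cyp4a genes of the list were not called: Cyp4a2, Cyp4a8 and Cyp4a3 differed by 0.028, 0.077 and -0.66. Acacb, whose product makes the inhibitor of the carnitine shuttle, was dim like Cpt1c and rose 1.36-fold. It read -3.73, -3.74 and -3.91 in control and -3.29, -3.50 and -3.28 in BBMP samples. Slc27a1, a fatty acid transporter, rose 1.31-fold. Of 34 tested genes of a list of other peroxisome genes, 4 rose and 2 fell (17.6%), with a median of 0.0068. Pex16, which helps insert membrane proteins, rose 1.41-fold, Nudt19 1.27-fold, Agps, an enzyme of ether lipid synthesis, 1.25-fold and Pex10 1.22-fold. Slc25a17, a cofactor carrier of the membrane, was 1.17-fold lower. Cat, the catalase gene, was not called, at -0.22 ± 0.095 (SE).

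Of 24 tested regulators of fatty acid oxidation, 3 rose and 0 fell (12.5%), with a median of 0.16. Foxo1, a transcription factor of fasting, rose 1.39-fold, at -0.029, 0.036 and 0.028 in control and 0.48, 0.41 and 0.56 in BBMP samples (limma adjusted p = 0.0141). Hnf4a, a factor of proximal tubule and liver genes, rose 1.39-fold and Rxrb, a partner of the PPAR receptors, 1.25-fold. Ppara itself read -1.07, 0.36 and 0.74 in control and -0.56, 0.00034 and 0.76 in BBMP samples, a spread that covered both groups (log2 difference 0.056 ± 0.56, SE).

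The labelled tissue was checked with cell markers. All 20 proximal tubule markers were well above background, 0 were called, and their summed linear signal was 3489 to 3580 in control and 3473 to 3514 in BBMP samples, with overlapping ranges. Collecting duct markers summed to 316 to 362 in control and 297 to 302 in BBMP samples, without overlap. Of these 10, Aqp4 and Hsd11b2 were called lower (20.0%, against 7.68% of all genes), and 4 had a difference above 0. Adrenal gland markers summed to 2.86 to 2.99 in control and 3.56 to 3.85 in BBMP samples, without overlap, with Th the largest part of each sum. Of the 5 tested, Cyp21a1 and Th were called higher (40.0%, against 10.2% of all genes). Cyp11b1, Star and Dbh were not well above background on all arrays of either group. Among adipocyte markers, which matter for lipid genes, Lep, Plin1 and Retn were not well above background on all arrays of either group, and the 5 tested summed to 1.33 to 1.94 in control and 1.83 to 2.81 in BBMP samples, with overlap and Cebpa called higher. The sums of podocyte, endothelial, leukocyte, fibroblast, erythroid, hepatocyte and thick limb markers overlapped between groups. Their part in the values above was not tested.

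The number of calls depended on which arrays were used. Without control array 1, 2 or 3, limma called 3, 2 and 8 of the 54 genes. Of all 31582 genes, 1096, 943 and 2431 were then called higher and 732, 594 and 1571 lower. Without BBMP array 1, 2 or 3 limma called 0, 0 and 2 of the 54, with 11, 13 and 12 at an unadjusted p under 0.05. Of all 31582 genes, 533, 3 and 917 were then called higher and 443, 0 and 714 lower. At an unadjusted p under 0.05 were 9588, 9551 and 9609 of all genes. Calls thus became fewer over all genes and not only among the 54. Hadha and Decr1 were the pair still called without any 1 control array or without BBMP array 3, and their adjusted p was 0.0515 for each without BBMP array 1. All 9 genes kept their direction in each of the 22 alternatives, and in row 1 alone Hadha differed by 0.49, Acox3 by 0.41, Pex14 by 0.33, Acaa1a by 0.26 and Pex6 by 0.24. There Decr1 differed by -0.42, Etfa by -0.35, Pex13 by -0.32 and Pex19 by -0.22. A p that misses the threshold does not show that the groups were alike.

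**Figure D5:**
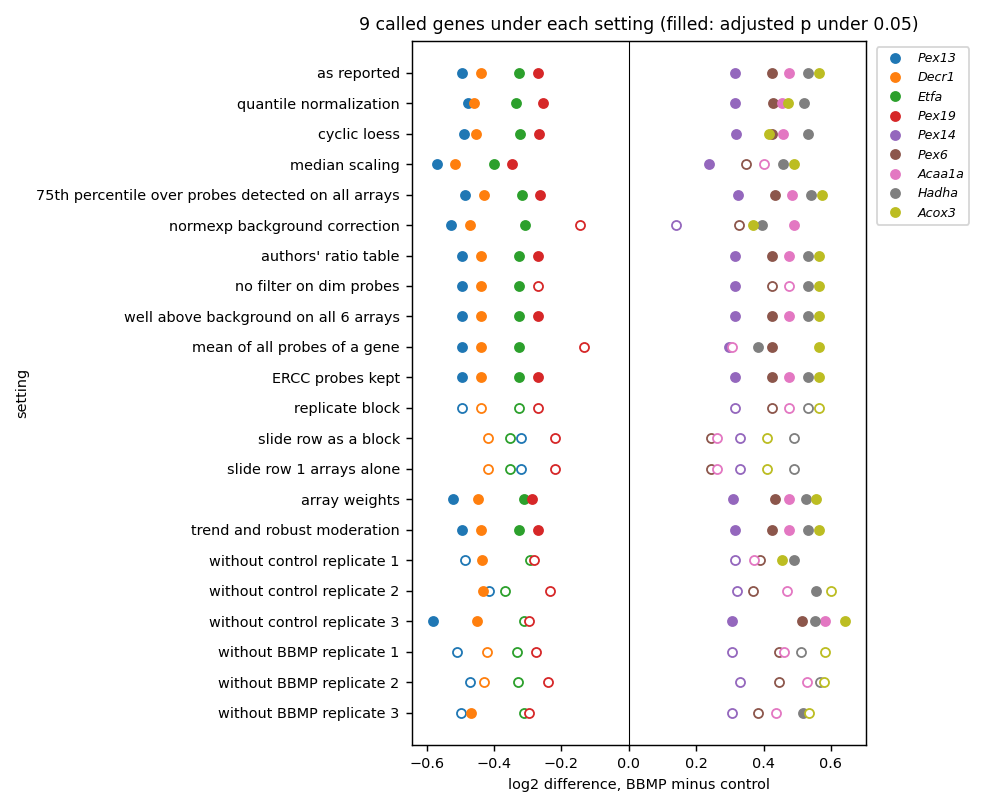
The log2 difference of the 9 called genes is plotted for the reported analysis and for 21 of the alternatives, with filled points where the adjusted p was under 0.05. Each gene keeps its side of 0 in every row, while the filled points disappear with the replicate block, with slide row as a block, in row 1 alone and without BBMP array 1 or 2.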

How the data were processed

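RNA from 6 renal cortex samples was measured on one-colour (Cy3) Agilent arrays. Per the file headers, Feature Extraction 10.7.1.1 (10.7 in the submitters' processing notes) produced the deposited intensity values: a background-subtracted, detrended processed signal, and the raw median signal with local background. The deposited flags are a score of 0 or 1. The authors' deposited table holds a ratio per probe, equal to the processed signal over the array's 75th percentile. Each column held the values of a different array than its label says, of the same group, so replicate numbers are uncertain and groups are not.

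Of 61657 probes not marked as controls, 84 ERCC spike-in probes and 10 with an outlier flag were left out. Log2 signal, with the 75th percentile of each array set to 0, was fitted for 31582 genes or sequences with limma 3.58.1 in R 4.3.3 (lmFit, eBayes, two-sided), with Benjamini-Hochberg adjustment over all of them, and separately over 42657 probes. Probes were named through a RefSeq table of GRCr8, which named 27460. The array design uses rn4, so probes have no coordinates here, and those of promoter windows are GRCr8's. The members and lists were chosen with earlier results of these data known. Named were all called members, the 2 largest differences and the brightest gene of each of 8 roles, up to 4 called genes a list and direction, and the others after their values were seen, to describe each role. The fit was tested on simulated data. The planned normexp alternative used the median signal. The planned search of protein ends was not run. Plots were drawn in Python 3.11.15 (matplotlib 3.10.9). With 3 arrays per group, their number limits the precision. Some genes of the pathway lists are counted but not reported here by name.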

Additional observations from a re-analysis of the deposited data

How the results depend on the processing

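Called higher and lower were 5 and 4 genes. Median scaling gave 3 and 5. With the replicate number as a block, with slide row as a block, in row 1 alone and with a 1.5-fold minimum, 0 and 0 were called; with the replicate block 13 had an unadjusted p under 0.05. Same-numbered arrays did not deviate together (correlations -0.12, -0.082 and -0.068), and differently numbered ones gave -0.05 to 0.123. As the replicate numbers are uncertain, these values cannot tell whether arrays were paired. The block took the calls over all genes from 5659 to 0. Leaving out 1 array gave 0 to 6 higher and 0 to 2 lower, a mitochondrial median of -0.011 to 0.11 and a peroxisomal median of 0.0083 to 0.066. The mitochondrial median was -0.047 with slide row as a block and in row 1 alone. The peroxisomal median was 0.034 with cyclic loess, -0.018 with median scaling, 0.026 with normexp, 0.090 with no filter on dim probes, 0.035 with the mean of all probes, and 0.012 with slide row as a block and in row 1 alone. The cause of these shifts was not tested.

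No called gene changed sign. In row 1 alone and with slide row as a block, uncalled genes with the other sign were Acaa2 (-0.12), Acadl (-0.047), Acads (-0.0080), Acot1 (-0.081), Acot4 (-0.25), Angptl4 (-0.058), Cd36 (-0.0045), Cpt1a (-0.18), Eci2 (-0.092), Ehhadh (-0.055), Fabp3 (-0.043), Hsd17b4 (0.078), Pdk4 (-0.20) and Slc25a20 (-0.040). With median scaling they were Acaa2 (-0.066), Acad11 (-0.044), Acadm (-0.054), Acads (-0.030), Acot1 (-0.023), Cd36 (-0.024), Eci2 (-0.054), Pdk4 (-0.013), Pex3 (-0.051) and Slc25a20 (-0.017). With the mean of probes they were Acad11 (-0.021), Acsl1 (0.11), Cd36 (-0.15), Crat (0.0082) and Pex5 (0.013). Others were Acaa2 (-0.015) and Acadm (-0.017) with quantile normalization, Acaa2 with cyclic loess (-0.0045) and array weights (-0.025), Eci2 with normexp (-0.029), and Acot2 (0.0027) and Decr2 (0.00059) with the percentile over detected probes. With 1 array left out, ranges that crossed 0 were -0.13 to 0.16 for Acaa2, -0.016 to 0.10 for Acad11, -0.011 to 0.075 for Acads, -0.10 to 0.057 for Acot2, -0.045 to 0.26 for Acot4, -0.033 to 0.42 for Acox2, -0.25 to 0.14 for Bdh1, -0.044 to 0.12 for Cd36, -0.15 to 0.28 for Cpt1a, -0.12 to 0.060 for Decr2, -0.027 to 0.078 for Eci2, -1.20 to 0.034 for Fabp1, -0.18 to 0.050 for Hsd17b4, -0.070 to 0.19 for Pdk4 and -0.018 to 0.045 for Pex3. Median scaling lost Acaa1a and Pex6 and gained Hadhb. With no filter Abcd2 was called, and Acaa1a, Pex19 and Pex6 were not. Normexp lost Pex14, Pex19 and Pex6 and gained Cpt2, Acadvl and Phyh. Over all genes, 0 were called with the replicate block, slide row as a block or row 1 alone (9943, 7288 and 7178 at an unadjusted p under 0.05). Values of dim probes, such as those of Acox2, Acox3 and the dimmest Cpt1b probe, rest on little signal over background.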
